A study of Homo sapiens with 8 samples.

Results

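The epithelial keratins examined here are KRT7, KRT8, KRT10, KRT17, KRT18, KRT19, KRT20 and KRT23, chosen by gene symbol. Every probe set on the array that carried 1 of these symbols and no other was used, and probe sets with several symbols were left out. Of these 8 genes, 7 had at least 1 probe set named for them, among 11963 genes in all. They were covered by 10 of 22277 probe sets, of which 9 passed the filter on low values and 1 of KRT7 did not. No probe set used here was named KRT17, so KRT17 was not analysed here. All 7 measured genes were tested, 5 of them through a single probe set.

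Keratins are the intermediate filament proteins of epithelial cells. A filament is built from pairs of an acidic type I and a basic type II chain, and a chain without a partner is degraded, so the pairs tend to be made together. KRT8 and KRT18 are the first pair of simple epithelium and line the gut from the embryo onward. KRT19 and KRT20 are further type I chains of gut epithelium, with KRT20 found mainly in differentiated surface cells. KRT7 marks ducts and many gastric and pancreatic tumours and is usually low in colon tumours. KRT10 is best known from the upper layers of skin, KRT17 from hair follicles and wounds, and KRT23 from some colon and pancreatic cancer cells.

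The 8 arrays formed 4 groups of 2, Caco-2 control, Caco-2 with a GATA6 shRNA, HUG1N control and HUG1N with the GATA6 shRNA. Caco-2 cells derive from a colorectal adenocarcinoma and can take on enterocyte features, and HUG1N cells, labelled HuG-1 as well, derive from gastric cancer. GATA6 is a transcription factor of the gut lining that binds GATA motifs, and the shRNA-infected cells were selected with puromycin. The labels give neither a time point nor the agent the control cells received, and do not state whether both arrays of a group were grown separately. A p-value here thus measures array-to-array spread only, and that spread may be technical. Values are log2 expression per probe set, with a lowest value of 2.08 on every array and array maxima of 16.4 to 16.6. A gene was tested where at least 2 arrays exceeded log2 4. A gene is called where the limma adjusted p (lmFit and eBayes on the 4 groups, Benjamini-Hochberg over 7696 genes) is under 0.05, and only called genes are said to rise or fall.

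GATA6 was 12.63 and 12.45 in the control arrays of Caco-2 and 12.23 and 12.02 in its shRNA arrays, a log2 difference of -0.42 (SE 0.10, limma adjusted p = 0.0224). For HUG1N the values were 12.54 and 12.45 against 12.26 and 12.22, a difference of -0.25 (SE 0.10, limma adjusted p = 0.0879). The shRNA arrays lay below the control arrays in both lines, by small amounts. The Caco-2 call of GATA6 was lost in 4 of 16 alternatives, with no filter (limma adjusted p = 0.0562), with the line fitted alone (0.0724), and in 2 fits that left out an array. These gave -0.32 (adjusted p = 0.112) when it was Caco-2 control replicate 1 and -0.31 (adjusted p = 0.0949) when it was Caco-2 shRNA replicate 2. In HUG1N GATA6 was called in 1 of 16, with eBayes trend and robust (adjusted p = 0.0346). All 6 epithelial markers examined were over log2 9 in every group mean, with EPCAM, the epithelial adhesion molecule, at 14.53 to 14.93. The intestinal markers were not all on in Caco-2, where VIL1 had a control mean of 11.98 but GPA33 lay at 2.08. In HUG1N control the gastric markers MUC5AC and CLDN18 had means of 9.35 and 10.75, while GKN1 lay at 2.08. Other members of both lists did not follow the organ of origin. The gastric peptides TFF1 and TFF2 had means of 11.24 and 10.45 in Caco-2 control. The intestinal genes LGALS4 and CDX1 were higher in HUG1N control, at 14.21 and 7.38 against 4.34 and 4.53 in Caco-2. All 6 measured markers of stratified squamous epithelium, KRT5 and KRT14 among them, stayed at or below 2.14 on all arrays.

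With the GATA6 shRNA, 4 of 7 keratins rose in Caco-2 and 5 of 7 rose in HUG1N. KRT8, KRT18, KRT19 and KRT23 rose in both lines, and KRT20 was called only in the HUG1N comparison. Over all genes tested, 38.7% were called in Caco-2 (19.5% higher) and 48.7% in HUG1N (24.7% higher), and 6.29% were called higher in both. The median log2 difference of the 7 keratins was 1.2 in Caco-2 and 0.66 in HUG1N, against -0.0030 and 0 over all genes tested. In the fit on the brightest probe set of each gene, limma called 0 keratins lower in either line. In that fit 0 were lower at an unadjusted p under 0.05. Over all genes 19.2% and 23.9% were called lower. With the line fitted alone, KRT10 was called lower in Caco-2 and KRT7 in HUG1N. Another KRT10 probe set differed by -0.33 in Caco-2 (95% interval -0.61 to -0.04, limma adjusted p = 0.0744 over probe sets). The keratins were picked with earlier results of the same arrays known, so the counts are a description. In whole cultures, a change in the share of cells that make a keratin and a change per cell cannot be told apart. The Caco-2 rises were called in all 16 alternatives run, whereas the HUG1N count was 3 with no filter, with the line fitted alone, and without HUG1N shRNA replicate 1.

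**Figure D1:**
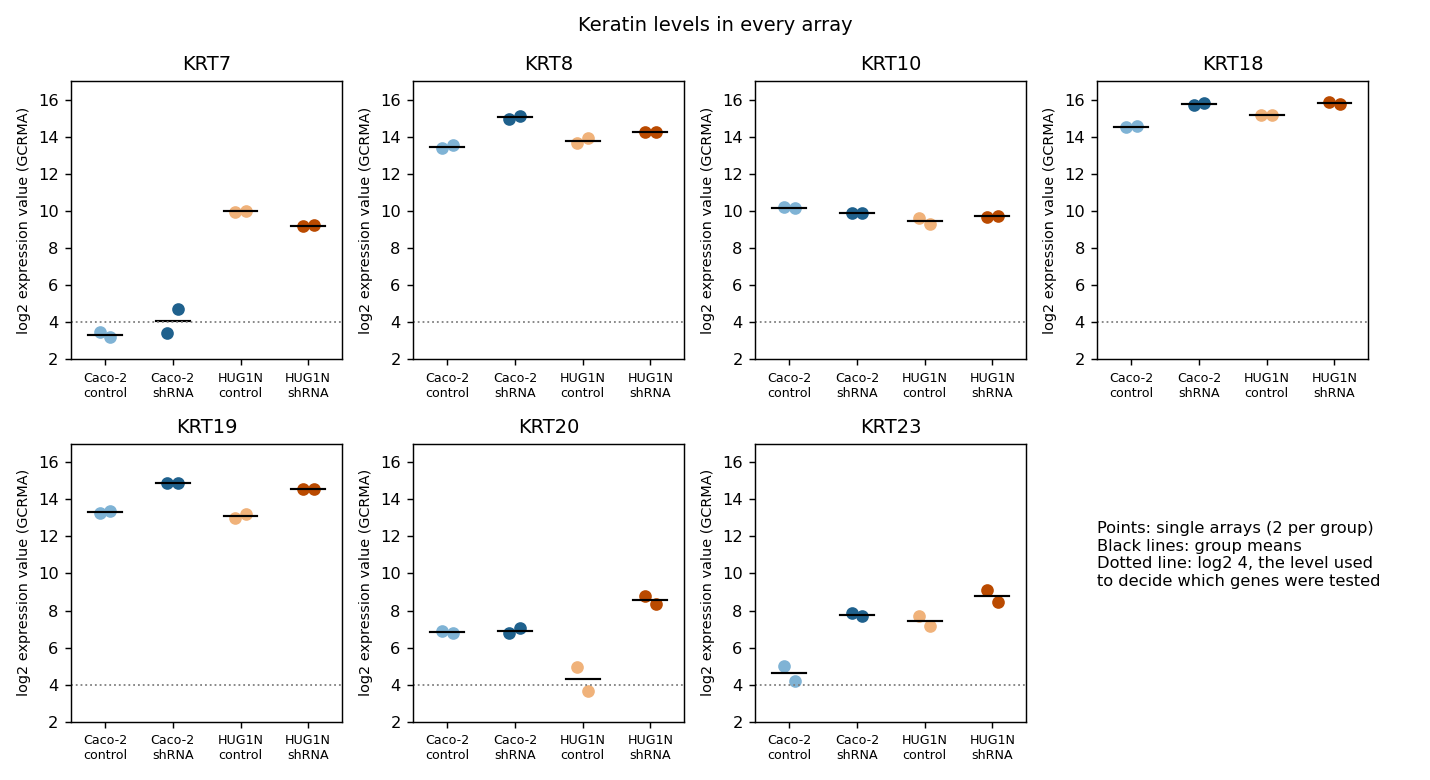
Log2 expression (GCRMA, vertical axis) of the 7 measured keratins on every array, by group; points are single arrays, black lines are means of 2 arrays, and the dotted line is log2 4. KRT8, KRT18, KRT19 and KRT23 are higher in the shRNA arrays of both lines, KRT20 is higher in those of HUG1N, and KRT7 is near the lowest values in Caco-2.

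KRT8, the type II chain of simple epithelium, was 13.38 and 13.54 in Caco-2 control arrays, against 14.96 and 15.12 in those with the shRNA. For HUG1N the values were 13.63 and 13.94 in control and 14.27 and 14.24 in shRNA arrays. The shRNA arrays lay above the control arrays in both lines, and the 4 groups did not overlap. The fold change was 2.99 in Caco-2 (95% interval 2.43 to 3.68, limma adjusted p = 0.000288). It was 1.38 in HUG1N (95% interval 1.12 to 1.70, limma adjusted p = 0.0221). The HUG1N call was lost in 5 of 16 alternatives. Leaving out HUG1N control replicate 1 gave log2 0.31 (limma adjusted p = 0.0839), and leaving out the first or second shRNA array gave adjusted p = 0.0830 or 0.0708. The suffix of its probe set, x_at, marks probes that may bind related transcripts, and KRT8 and KRT18 have many processed pseudogenes. A probe set annotated to the pseudogene KRT8P12, picked after its values were seen, read 6.86 and 6.18 in Caco-2 control arrays, against 7.55 and 8.14 in those with the shRNA. It read 7.37 and 7.27 in HUG1N control and 7.66 and 7.75 in HUG1N shRNA arrays, a difference called in Caco-2 (1.32, limma adjusted p = 0.0123 over probe sets) and not in HUG1N (0.39, 95% interval -0.27 to 1.04, adjusted p = 0.288). The share of KRT8 and pseudogene signal in either probe set was not tested.

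KRT18, the type I partner of KRT8, was 14.50 and 14.59 in Caco-2 control arrays, against 15.71 and 15.79 in those with the shRNA. In HUG1N it was 15.14 and 15.15 in control and 15.86 and 15.75 in shRNA arrays. The shRNA arrays of the 2 lines overlapped at the top, HUG1N control lay below them, and Caco-2 control was lowest. KRT18 changed 2.30-fold in Caco-2 (95% interval 2.03 to 2.61, limma adjusted p = 0.000119) and 1.58-fold in HUG1N (95% interval 1.39 to 1.80, limma adjusted p = 0.00094). Both calls held in all 16 alternatives. The only KRT18 probe set also has the suffix x_at, and the share of related transcripts in its signal was not tested. KRT18 is the one type I gene that lies on chromosome 12 among the type II genes, where the RefSeq spans of KRT8 and KRT18 overlap.

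KRT19, a type I chain that pairs with KRT8 or KRT7, was 13.29 and 13.37 in Caco-2 control arrays, against 14.88 and 14.90 in those with the shRNA. For HUG1N the values were 12.99 and 13.21 in control and 14.56 and 14.57 in shRNA arrays. Of the keratins measured, KRT19 had the most similar fold change in the 2 lines, 2.95 in Caco-2 (95% interval 2.54 to 3.43) and 2.75 in HUG1N (95% interval 2.37 to 3.20). Limma adjusted p was 0.0000841 and 0.000126, and both calls held in all 16 alternatives. The difference between the 2 effects was -0.10 on the log2 scale (95% interval -0.41 to 0.21, limma adjusted p = 0.542). All 4 shRNA arrays lay above all 4 control arrays, and no neighbouring groups overlapped.

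KRT20, the keratin of differentiated gut surface cells, behaved differently in the 2 lines. In Caco-2 it was 6.89 and 6.78 in control and 6.78 and 7.05 in shRNA arrays, and these ranges overlapped. In HUG1N it was 4.97 and 3.66 in control and 8.76 and 8.33 in shRNA arrays, from the lowest of the 4 groups to the highest. The Caco-2 difference was 0.08 (95% interval -0.90 to 1.07, limma adjusted p = 0.914). In HUG1N the fold change was 18.8 (95% interval 9.47 to 37.2, limma adjusted p = 0.000541), called in all 16 alternatives. With 1 of the 2 HUG1N control arrays under log2 4 and an SD of 0.93 between them, the size of this fold is loosely set; leaving out 1 HUG1N array at a time put the log2 change between 3.57 and 4.89.

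The promoters of KRT20 and KRT8 are shown because KRT20 had the largest rise in HUG1N, KRT8 rose in both lines, and the shRNA targeted a GATA factor. Each run is the 250 bases before a RefSeq start (GRCh38.p14), 5′ to 3′ on the gene's strand, and capitals mark GATAA, the core of GATA sites.
KRT20, chr17:40885243-40885492, minus strand: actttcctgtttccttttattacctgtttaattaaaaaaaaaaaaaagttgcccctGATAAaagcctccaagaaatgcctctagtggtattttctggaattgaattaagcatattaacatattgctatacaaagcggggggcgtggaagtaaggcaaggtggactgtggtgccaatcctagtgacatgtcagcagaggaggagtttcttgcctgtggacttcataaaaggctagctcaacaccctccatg
KRT8, chr12:52926470-52926719, minus strand: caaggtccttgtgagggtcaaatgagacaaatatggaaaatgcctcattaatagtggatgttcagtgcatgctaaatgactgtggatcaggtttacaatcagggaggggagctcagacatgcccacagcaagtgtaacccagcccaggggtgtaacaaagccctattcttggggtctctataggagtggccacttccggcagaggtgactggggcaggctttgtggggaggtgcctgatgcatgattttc
Only 3 of the 8 keratins, KRT8, KRT10 and KRT20, had a window here, and that of KRT8 lies inside its RefSeq gene span, at 1 of its annotated starts. The full window of 300 bases, which runs 50 bases past the start, was searched on both strands for GATAA and for 3 other motifs. GATAA was found once in KRT20, from base 57 of the run shown, once in KRT10 and not in KRT8. Of 35116 windows in the table, 22.7% held GATAA. The TATA motif, TATAAA, was found once, in KRT10, and in 11.5% of windows. The AP-1 motif, TGANTCA, was in none of the 3 and in 7.71% of windows. The Sp1 motif, GGGCGG, was in none of the 3 and in 45.0% of windows. No motif match overlapped another, and a match is only a string of letters.

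KRT23, a type I keratin of less well known function, was 5.02 and 4.19 in Caco-2 control arrays, against 7.86 and 7.71 in those with the shRNA. For HUG1N the values were 7.69 and 7.18 in control and 9.13 and 8.48 in shRNA arrays. HUG1N shRNA was highest, Caco-2 shRNA lay just above HUG1N control without overlap, and Caco-2 control stood well below. The rise was 9.06-fold in Caco-2 (95% interval 5.09 to 16.1, limma adjusted p = 0.000937), the largest of the 7 in that line and called in all 16 alternatives. In HUG1N it was 2.58-fold (95% interval 1.45 to 4.59, limma adjusted p = 0.0179). That call was lost in 4 of 16 alternatives, among them without HUG1N control replicate 2 (log2 1.11, limma adjusted p = 0.0943) or without shRNA replicate 1 (log2 1.04, adjusted p = 0.0908).

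KRT7, the type II keratin of ducts, separated the lines. It was 3.44 and 3.21 in Caco-2 control arrays, against 3.41 and 4.67 in those with the shRNA, so only 1 Caco-2 array exceeded log2 4. In HUG1N it was 9.92 and 10.01 in control and 9.15 and 9.24 in shRNA arrays. The HUG1N shRNA arrays lay below the control arrays without overlap, at a log2 difference of -0.77 (95% interval -1.67 to 0.14, limma adjusted p = 0.136). The SE of 0.37 is shared with Caco-2, whose shRNA arrays had an SD of 0.90 against 0.06 in either HUG1N group. With HUG1N fitted alone the same difference had an SE of 0.07 (limma adjusted p = 0.0113), and it was also called with values under log2 4 set to 4 (adjusted p = 0.0199) and without Caco-2 shRNA replicate 1 or 2 (adjusted p = 0.00421 for each). In Caco-2 the difference was 0.72 (limma adjusted p = 0.181); it was 1.35 and called without Caco-2 shRNA replicate 1 (adjusted p = 0.00255) and 0.08 without replicate 2. The other KRT7 probe set read 2.08 on all 8 arrays, so the 2 probe sets disagreed in HUG1N.

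KRT10, a type I keratin of suprabasal epidermis, had 3 probe sets. Its brightest read 10.19 and 10.12 on the Caco-2 control arrays, against 9.90 and 9.89 with the shRNA. In HUG1N that probe set read 9.63 and 9.28 on control and 9.68 and 9.72 on shRNA arrays. The 4 groups did not overlap, in the order Caco-2 control, Caco-2 shRNA, HUG1N shRNA, HUG1N control. The shRNA differences of -0.26 in Caco-2 (limma adjusted p = 0.130) and 0.24 in HUG1N (adjusted p = 0.135) were not called. In a fit over 12758 probe sets the other probe sets gave -0.33 and -0.22 in Caco-2 and 0.04 and 0.12 in HUG1N, none called, where 35.1% and 46.6% of probe sets were called in the 2 lines. The Caco-2 difference of the brightest was called with the line fitted alone (adjusted p = 0.0352) and without either HUG1N control array (adjusted p = 0.0294 for each). That of HUG1N was called without HUG1N control replicate 1 (log2 0.42, adjusted p = 0.0136). KRT1 and KRT2, the type II partners of KRT10 in skin, read 2.08 on all 8 arrays.

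**Figure D2:**
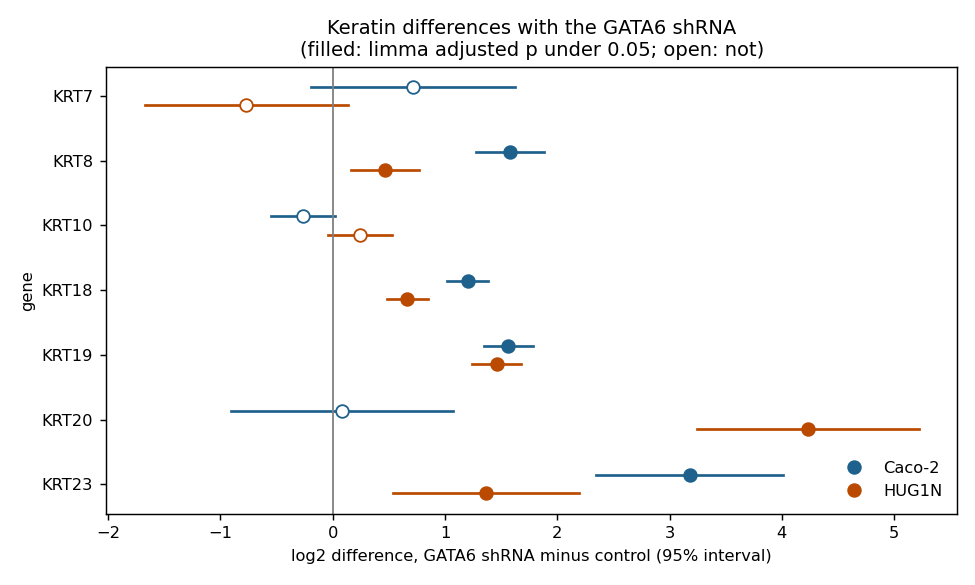
Log2 difference between GATA6 shRNA and control (horizontal axis) for each keratin in Caco-2 (blue) and HUG1N (orange), with the 95% interval of the limma fit; filled points have an adjusted p under 0.05. KRT19 has nearly the same value in both lines, KRT8, KRT18 and KRT23 are larger in Caco-2, and KRT20 stands at 4.23 in HUG1N and 0.08 in Caco-2.

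The difference between the shRNA effects of the lines, HUG1N minus Caco-2, was called for 5 of 7 keratins, against 44.9% of all genes tested (22.2% higher and 22.7% lower). It was negative for KRT8 (-1.11, SE 0.17, limma adjusted p = 0.00379), KRT18 (-0.54, SE 0.11, adjusted p = 0.0086) and KRT23 (-1.81, SE 0.48, adjusted p = 0.0248), whose rises were larger in Caco-2. KRT18 had shRNA means of 15.75 in Caco-2 and 15.81 in HUG1N, where array maxima were 16.4 to 16.6. Whether its rise was limited near the top of the scale was not tested. The difference was positive for KRT20 (4.15, SE 0.57, limma adjusted p = 0.00248) and for KRT10 (0.51, SE 0.17, adjusted p = 0.0492). Those of KRT8, KRT18 and KRT20 were called in all 15 alternatives that gave a value. That of KRT23 was lost in 6. Limma adjusted p was 0.0604 when Caco-2 control replicate 2 was left out, 0.0772 and 0.0627 for the Caco-2 shRNA arrays, 0.0789 for HUG1N control replicate 1, 0.0693 for HUG1N shRNA replicate 2, and 0.0927 with no filter. That of KRT10 was lost in 10 of 15, in 7 of the 8 fits that left out 1 array (HUG1N control replicate 1 excepted), and the other KRT10 probe sets gave adjusted p of 0.120 and 0.117, where 42.4% of probe sets were called. For KRT7 the difference was -1.49 (SE 0.53, limma adjusted p = 0.0617); it was called in 4 of 15 alternatives, at -2.12 without Caco-2 shRNA replicate 1 (adjusted p = 0.00157) and -0.85 without replicate 2 (adjusted p = 0.0157).

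The control cells of the lines were also compared with each other. Compared with Caco-2 control, HUG1N control was higher in 4 keratins and lower in 2, where 78.4% of all genes tested were called, 37.1% higher and 41.3% lower, so the count of 6 of 7 is near that share. KRT7 was at least 62.5-fold higher in HUG1N, taking log2 4 for Caco-2, where no control array exceeded it. KRT23 was 7.13-fold higher (95% interval 4.0 to 12.7, limma adjusted p = 0.000311) and KRT18 1.51-fold (95% interval 1.33 to 1.72, adjusted p = 0.000388). KRT8 was 1.25-fold higher (limma adjusted p = 0.0479), a call lost in 9 of 16 alternatives, among them without either Caco-2 control array (adjusted p = 0.203 and 0.0647), without HUG1N control replicate 2 (0.220), and without any 1 shRNA array (0.0618 to 0.0722). KRT20 was lower in HUG1N by -2.52 on the log2 scale (SE 0.41, limma adjusted p = 0.00128) and KRT10 by -0.70 (SE 0.12, adjusted p = 0.00155). All 3 KRT10 probe sets were called lower in HUG1N, where 76% of probe sets were called in either direction. KRT19 differed by -0.23 (95% interval -0.44 to -0.01, limma adjusted p = 0.0547) and was not called, though it was without HUG1N control replicate 2 (-0.34, adjusted p = 0.0122). The control arrays here are those used for the shRNA differences, so the values are not independent of them.

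Array quality values and some cell type markers moved with the groups. The 3′ minus 5′ gap of ACTB probe sets, which widens when RNA is broken, was 1.91 and 1.94 in Caco-2 control arrays, against 1.65 and 1.46 in those with the shRNA. For HUG1N the values were 2.68 and 2.35 in control and 3.69 and 3.77 in shRNA arrays. The mean of the BioB spike-in probe sets was 10.03 and 9.89 in HUG1N control but 4.77 and 4.52 in HUG1N shRNA arrays, while the mean of the other spike-ins was 13.49 and 13.37 against 13.25 and 13.17. Of 7 fibroblast markers only 2 were tested, LUM and COL1A1, and of these LUM rose in Caco-2. The list's summed log2 level in Caco-2 ran from 18.4 to 18.5 in control and 22.4 to 22.9 in shRNA arrays. COL1A2, COL3A1, DCN and THY1 lay between 2.08 and 2.11 in every group mean. In HUG1N neither tested fibroblast marker was called. Of 6 epithelial markers 3 rose in Caco-2 (CLDN4, 1.49, SPINT1, 0.66, and ESRP1, 0.49) and 0 fell. Their summed level was 68.9 in both control arrays against 71.2 to 71.3 in shRNA arrays. For HUG1N 2 epithelial markers rose (CLDN4, 0.52, and EPCAM, 0.40) and 1 fell (SPINT1, -0.73), with sums of 70.2 to 70.4 against 70.0. Some intestinal and gastric markers were called too. In Caco-2, 3 of 5 tested intestinal markers fell (CDX2, CDH17 and LGALS4), and their list's summed level was 41.8 to 42.7 in control against 38.5 to 39.0 in shRNA arrays. There 2 of 5 gastric markers fell (TFF1, -3.20, and TFF2, -4.22), with sums of 34.0 to 34.1 against 25.7 to 26.4. In HUG1N 1 intestinal marker rose (VIL1, 1.15) and 1 fell (CDX1, -1.59), with sums of 44.1 to 44.4 against 43.4 to 44.4. Of its gastric markers 1 rose (MUC5AC, 0.57) and 2 fell (CLDN18, -2.71, and TFF1, -0.59), with sums of 55.0 to 56.0 against 52.8 to 53.0. Over all genes tested 19.5% were called higher and 19.2% lower in Caco-2, and 24.7% and 23.9% in HUG1N. With 5 or 6 tested genes in these 3 lists, counts of 1 are near those shares, and the counts are a description. The part of RNA quality, the spike-ins or transcripts of these marker lists in the keratin differences was not tested.

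Most other keratins with a probe set read near the lowest value in both lines. Of 47 further keratin genes 25 had a probe set, and 24 of these exceeded log2 4 on no array, the highest being KRT4 at 2.75 in Caco-2 shRNA replicate 1. The exception was KRT15, a basal-cell type I keratin, at means of 5.81 in both control groups, 5.88 in Caco-2 shRNA and 6.13 in HUG1N shRNA arrays. KRT15 read the same value, 5.83, on replicate 1 of both control groups, and whether its values lie above background was not tested. Its differences of 0.08 and 0.33 were not called (limma adjusted p = 0.722 and 0.103); without HUG1N shRNA replicate 1 the HUG1N difference was 0.55 (adjusted p = 0.00526). Vimentin (VIM), the intermediate filament of mesenchymal cells, read 2.08 on all 8 arrays.

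Among 15 other intermediate filament genes 6 were tested, and 1 rose and 2 fell in Caco-2, while 1 rose and 1 fell in HUG1N. Over all genes 19.5% and 19.2% were called higher and lower in Caco-2 and 24.7% and 23.9% in HUG1N, and with 6 genes these counts are near those shares. Their median log2 difference was -0.19 in Caco-2 and 0.05 in HUG1N. LMNA, which encodes lamins A and C of the nuclear lamina, was 9.81 and 9.81 in Caco-2 control arrays, against 10.74 and 10.95 in those with the shRNA. In HUG1N LMNA was 11.49 and 11.71 against 12.14 and 11.98, and it rose in both lines without overlap. The differences were 1.04 (SE 0.11, limma adjusted p = 0.00101) and 0.46 (SE 0.11, adjusted p = 0.0171). In HUG1N the LMNA call did not hold when control replicate 1 (adjusted p = 0.0817) or shRNA replicate 1 (0.0810) was left out, with the line fitted alone (0.0557), and with the mean of probe sets (0.15, adjusted p = 0.204). SYNM, the gene of synemin, changed by -0.78 in Caco-2 (SE 0.23, limma adjusted p = 0.0373) and LMNB2 by -0.58 (SE 0.18, adjusted p = 0.0429). These calls were lost in 6 and 8 of 16 alternatives, at 0.0532 to 0.170 and 0.0660 to 0.168. PRPH, the neuronal filament peripherin, fell at least 1.75-fold in HUG1N (limma adjusted p = 0.0000537), from 4.89 and 4.72 to 2.51 on both shRNA arrays.

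Genes whose proteins tie keratins to junctions or other partners rose more often than they fell in both lines. In HUG1N the number of rises depended on the fit. Of 17 tested, 8 rose and 1 fell in Caco-2, and 7 rose and 1 fell in HUG1N, with medians of 0.34 and 0.37. Over all genes 19.5% and 24.7% were called higher, and 19.2% and 23.9% lower. The Caco-2 count of falls was 3 when Caco-2 shRNA replicate 1 was left out and 2 with the mean of probe sets. The HUG1N count of rises was 4 with the line fitted alone and without HUG1N control replicate 2. A count of 4 of 17 is near the 24.7% called higher in HUG1N over all genes. The array quality values and some of the markers above moved with these groups too.

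PPL, the plakin periplakin that binds keratin filaments, was 9.0 and 9.02 in Caco-2 control arrays, against 11.08 and 11.12 in those with the shRNA. In HUG1N PPL was 9.77 and 9.67 in control and 10.17 and 10.03 in shRNA arrays. It rose 4.26-fold (95% interval 3.75 to 4.85, limma adjusted p = 0.0000148) and 1.31-fold (95% interval 1.15 to 1.48, adjusted p = 0.00767), without overlap in either line and in all 16 alternatives. ITGB4, the integrin of hemidesmosomes, was 6.03 and 6.53 in Caco-2 control arrays, against 8.83 and 9.29 in those with the shRNA, a difference of 2.78 (SE 0.21, limma adjusted p = 0.000224). With the mean of its probe sets the difference was 0.91. In HUG1N ITGB4 was already at 10.06 and 9.98 in control, against 10.29 and 10.23 (0.24, limma adjusted p = 0.380). DST, a plakin of hemidesmosomes, changed by 0.997 in Caco-2 and 0.40 in HUG1N (limma adjusted p = 0.000589 and 0.0140). DSP, the desmosomal protein that anchors keratins, changed by 0.72 and 0.27 (adjusted p = 0.00172 and 0.0481). The HUG1N calls of DST and DSP were lost in 4 and 10 of 16 alternatives, at 0.0510 to 0.422 and 0.0643 to 0.184.

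JUP, or plakoglobin, which links desmosomal cadherins to DSP, went the other way. It was 11.56 and 11.58 in Caco-2 control arrays, against 11.04 and 11.05 in those with the shRNA, and 11.90 and 12.02 against 10.60 and 10.57 in HUG1N. JUP fell by 0.53 in Caco-2 (SE 0.07, limma adjusted p = 0.00198) and by 1.38 in HUG1N (SE 0.07, adjusted p = 0.0000659), called in all 16 alternatives. MACF1, a linker between actin and microtubules, rose by 1.11 in HUG1N (SE 0.08, limma adjusted p = 0.000219) and PKP2, a desmosomal plakophilin, by 0.85 (SE 0.09, adjusted p = 0.000645). With the mean of probe sets PKP2 changed by 0.43 (adjusted p = 0.0793). In Caco-2 MACF1 changed by 0.27 (limma adjusted p = 0.0412, lost in 10 of 16 alternatives at 0.0503 to 0.186) and PKP2 by -0.10 (adjusted p = 0.389).

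**Figure D3:**
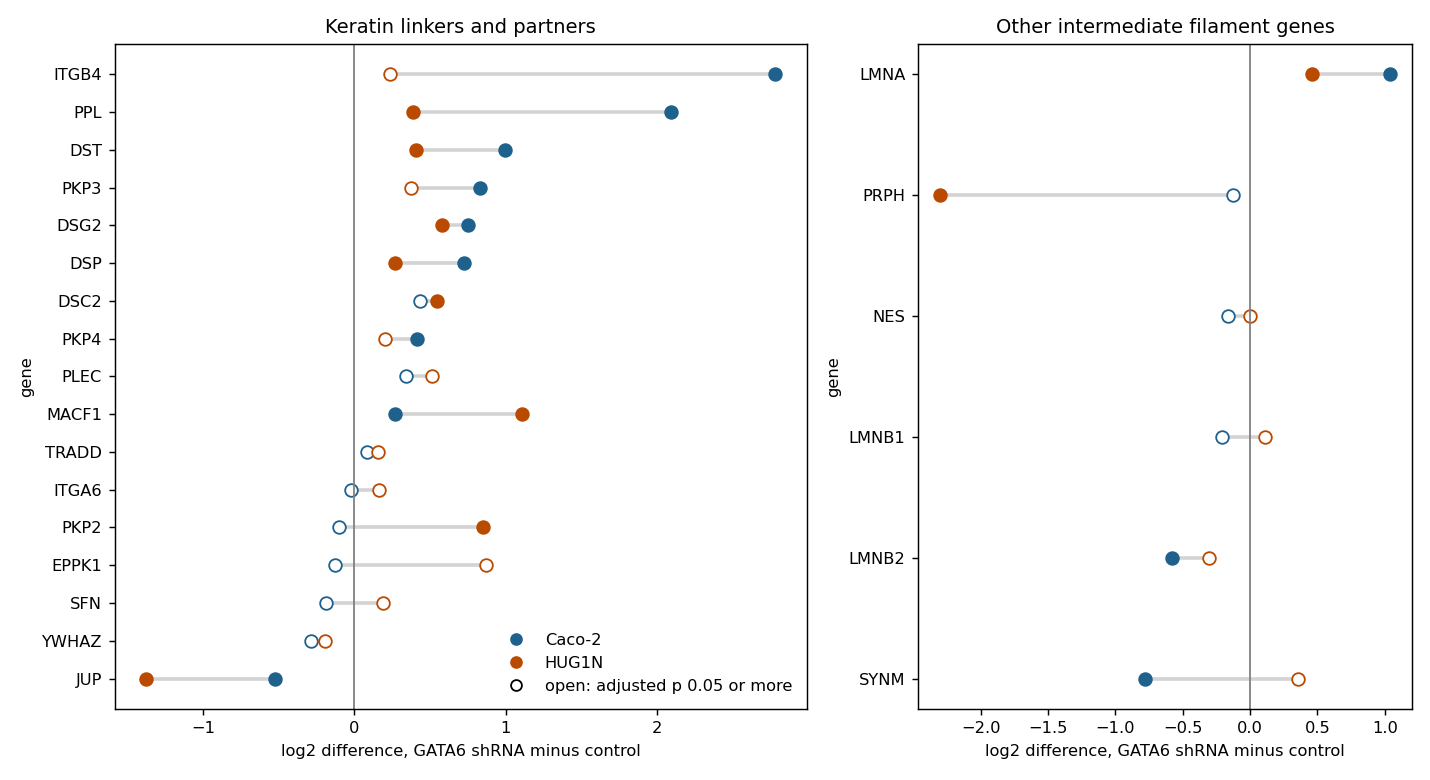
Log2 difference between GATA6 shRNA and control (horizontal axis) in Caco-2 (blue) and HUG1N (orange) for 17 tested keratin linkers and partners (left) and 6 other intermediate filament genes (right); open points have a limma adjusted p of 0.05 or more. ITGB4 and PPL stand out in Caco-2 at 2.78 and 2.09, and JUP is below 0 in both lines.

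For each keratin, the 2 genes with the most similar profile were taken by Pearson's r over the 8 arrays. These arrays form 4 groups, so r mostly reflects the relative spacing of 4 group means. KRT19 was closest to RAB15 (r = 0.994) and AHNAK (r = 0.991), which also were high in the shRNA groups of both lines. The group means of RAB15 were 7.97 in Caco-2 control, 10.20 in Caco-2 shRNA, 7.79 in HUG1N control and 9.93 in HUG1N shRNA arrays. KRT18 was closest to NPEPPS (r = 0.994) and BCO1 (r = 0.983), KRT8 to TMEM62 (r = 0.981) and IER2 (r = 0.980), and KRT23 to CAMK2N1 (r = 0.986) and CLTA (r = 0.983). KRT20 was closest to DNAJB6 (r = 0.981) and SPA17 (r = 0.977), KRT7 to IGFBP1 (r = 0.998) and CAPZB (r = 0.998), and KRT10 to SNORA21 (r = 0.990) and BRD8 (r = 0.983).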

How the data were processed

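RNA of 8 arrays was analysed from the deposited log2 values, 1 per probe set, which the authors made with GCRMA per the submitters' processing notes; version and settings: not given in the sources used here. No further scaling was applied. Probe sets were named by the platform's annotation table with symbols updated through RefSeq GRCh38.p14. Of 22277, 19070 had 1 symbol, 1043 several and 2164 none here. Only probe sets with 1 symbol could stand for a gene. The brightest probe set stood for each of 11963 genes, and 7696 genes over log2 4 on at least 2 arrays were tested with limma 3.58.1 in R 4.3.3, with 4 residual degrees of freedom and 95% intervals from the fit. A second fit covered 12758 single probe sets. Genes named were all 8 members, up to 4 genes per pathway list and line with the smallest p, and the 2 genes most like each member. The members, lists and tests were chosen with earlier results of these data known. The script was tested on simulated data. The number of arrays limits the precision. Alternatives covered the filter, scaling, variance model, samples fitted, choice of probe set, a floor, the replicate number as a block and each array left out.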

Additional observations from a re-analysis of the deposited data

Results flagged for a closer look

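The shRNA effect differed between HUG1N and Caco-2 by limma's test of the difference for the following genes, given as HUG1N minus Caco-2 on the log2 scale. Among the keratins these were KRT8 (-1.11), KRT10 (0.51), KRT18 (-0.54), KRT20 (4.15) and KRT23 (-1.81). Among the other intermediate filament genes they were LMNA (-0.58), SYNM (1.14) and PRPH (-2.17). Among the linkers they were PPL (-1.71), ITGB4 (-2.55), DST (-0.59), DSP (-0.45), JUP (-0.85), MACF1 (0.84) and PKP2 (0.95). Several of these calls were not firm over 15 alternatives. That of LMNA was lost in 8 (replicate block, adjusted p = 0.0690), that of DSP in 8 (replicate block, 0.0558), that of SYNM in 6 and that of PKP2 in 1, where the mean of probe sets gave 0.18 (adjusted p = 0.576). ITGB4 moved to -1.06 with the mean of probe sets and stayed called. PRPH exceeded log2 4 only on the HUG1N control arrays, and its difference was as small as -0.81 among the alternatives. Leaving out either Caco-2 control array lost all 3 of the calls of LMNA, DSP and SYNM. Those of LMNA and SYNM were also lost without Caco-2 shRNA replicate 2 or HUG1N control replicate 2, and that of DSP without Caco-2 shRNA replicate 1 or HUG1N control replicate 1. Without HUG1N shRNA replicate 1 DSP and SYNM lost theirs, and without its replicate 2 LMNA and DSP did. Limma adjusted p in these fits was 0.0506 to 0.0906. KRT10 and KRT23 lost theirs in 10 and 6. Limma adjusted p ran up to 0.0492, that of KRT10. Over all genes tested 44.9% were called for this difference.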

How the results depend on the processing

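Of 441 values of single keratins under 16 alternatives, 389 kept direction and call, 34 lost a call, 16 gained one and 2 changed sign without being called, KRT20 in Caco-2 (0.08, and -0.0518 to 0.216 leaving out 1 array) and the KRT19 difference between lines (-0.10, and -0.213 to 0.00880 leaving out 1 array). Keratins called higher in HUG1N numbered 3 with no filter and 3 with the line fitted alone. Keratins called lower numbered 1 in Caco-2 with the line fitted alone (KRT10), and 1 in HUG1N with the line fitted alone and with values under log2 4 set to 4 (KRT7). For the difference between lines, keratins called higher numbered 1 with no filter, with the mean of probe sets and with the replicate block. Leaving out 1 array gave 1895 to 2974 genes called in Caco-2, where the counts were 1985 and 1895 without Caco-2 control replicate 1 and 2. It gave 0 to 1 keratins lower in Caco-2, 3 to 5 higher and 0 to 1 lower in HUG1N, and 1 to 2 higher for the difference. Deviations of same-numbered arrays correlated at 0.07 in Caco-2 and -0.02 in HUG1N, so no shared deviation was seen. With 2 arrays a group this cannot show whether same-numbered arrays were paired. With the replicate block 4 keratins were called in Caco-2 and 5 in HUG1N. With the mean of probe sets, PKP2 in Caco-2 was 0.26 and ITGB4 in HUG1N -0.14, both not called. GATA6 in HUG1N against Caco-2 control was -0.04, and 0.0888 with median centring, 0.0487 without Caco-2 control replicate 1 and 8.47e-04 without HUG1N control replicate 2, none called. Median centring moved the median of all genes by 0.13 between control lines and by up to 0.07 in the other comparisons. The cause of these changes was not tested. With 2 arrays a group, small differences cannot be resolved.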
